A study of Saccharomyces cerevisiae with 24 samples.

Results

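Budding yeast stores glucose in 2 reserve carbohydrates, the disaccharide trehalose and the branched polymer glycogen. Both draw on glucose phosphates and UDP-glucose, both are known to build up as glucose runs low or under stress, and both are held down by protein kinase A while glucose is plentiful. The genes described here are the 10 genes of this metabolism named by their systematic names: TPS1, TPS2, TSL1 and NTH1 for trehalose, GSY1, GSY2, GPH1, GLC3 and GDB1 for glycogen, and PGM2, which serves both. Of the 10 genes, 9 were found among the 5193 genes of the tables, and all 9 passed the filter on average counts that left 5142 genes. TPS1, trehalose-6-phosphate synthase, was not analysed here.

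RNA-seq was performed on 24 samples of the wild-type W303-1B strain, which carries the markers ade2, trp1, can1, leu2, his3 and ura3, grown in YPD without chemical treatment and pipetted by an Opentrons OT-2 robot at 50, 130, 210 or 290 µL/s, to ask whether the speed of pipetting affects gene expression. In the methods, the robot put Milli-Q water into the sample tubes, in volumes set from absorbance, and then added culture at the given speed. It worked with single-channel pipettes. The part of dilution or of handling time in the results was not tested. There were 6 samples at a speed, from 2 biological replicates with 3 technical replicates. B2T1 at 290 stands here for biological replicate 2, technical replicate 1, at 290 µL/s. A biological replicate was 1 culture of the same clone, so p-values measure the spread between samples drawn from 2 cultures.

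Total expected counts lay between 11555761 and 15464428, and the 9 genes had between 4706 and 36374 counts in a sample. The TMM factor averaged 1.02 in technical replicate 3, 0.995 in technical replicate 2 and 0.985 in technical replicate 1. The methods give the strain W303-1B as MATa, but markers of MATalpha cells were abundant, with a median of 4229 TPM for the pheromone gene MF(ALPHA)1 and 314 TPM for the receptor gene STE3. The 3 of 6 markers of MATa cells with a row, STE2, BAR1 and STE6, had medians between 4.24 and 6.95 TPM, and none was at 0. Their sum lay between 13.8 and 17.2 TPM in technical replicate 3 and between 16.9 and 19.8 TPM in technical replicate 1. The sum of the 4 MATalpha markers went the other way, with 5926 to 6350 TPM in technical replicate 3 and 5213 to 5630 TPM in technical replicate 1. Between these replicates, 3 of the 4 were called higher, against 26.2% of all genes, and MF(ALPHA)1 was not called. Of the 3 MATa markers, 2 were called lower, against 23.1% of all genes. The part of either shift in the results was not tested. In bulk samples a smaller share of cells expressing a gene and less RNA of it per cell cannot be told apart.

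The reserve carbohydrate genes were expressed at moderate to high levels in every sample. PGM2, the main phosphoglucomutase, which links glucose 6-phosphate to glucose 1-phosphate, had the highest level, with a median of 922 TPM over 24 samples. GPH1, the glycogen phosphorylase, followed with 668 TPM, and GSY1, one of the pair of glycogen synthases, with 537 TPM. GLC3, the branching enzyme, and TPS2, the trehalose-6-phosphate phosphatase, had medians of 397 and 394 TPM. Their order was not fixed, since GLC3 was above TPS2 in 10 of 24 samples. GSY2, the other glycogen synthase, had 282 TPM and was above the neutral trehalase gene NTH1, with 255 TPM, in 23 samples. TSL1, which encodes a large regulatory subunit of the trehalose synthase complex, had 247 TPM and was below NTH1 in 14 samples. GDB1, the debranching enzyme, had the lowest level, with 105 TPM. For each of the other neighbours in this order, the gene with the higher median was higher in all 24 samples. TPM divides by gene length, so these levels can be compared between genes. The pairs GSY1 and GSY2, PGM2 and PGM1, NTH1 and NTH2, and TSL1 and TPS3 are duplicated genes, and RSEM divides the reads that fit both copies, so the level of each copy carries that uncertainty.

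All 9 genes were lower in technical replicate 3 than in technical replicate 1. Together they made up 3153 ± 222 TPM in technical replicate 3, 3764 ± 418 TPM in technical replicate 2 and 4478 ± 405 TPM in technical replicate 1 (SD, n = 8 each). With a term for technical replicate added to the model, each of the 9 passed the threshold of a false discovery rate (FDR) below 0.01 in technical replicate 3 against 1, against 23.1% of all 5142 genes called lower in that comparison. The median log2 fold change of the 9 was -0.49, against 0.01 over all genes, whose median size without sign was 0.14. The sources used here do not state what separated technical replicates 1, 2 and 3, and the number was not tested as an order. Total expected counts had medians of 13410474 in technical replicate 3 and 12795986 in technical replicate 1, and mean fragment lengths averaged 185 and 186 bases.

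**Figure D1:**
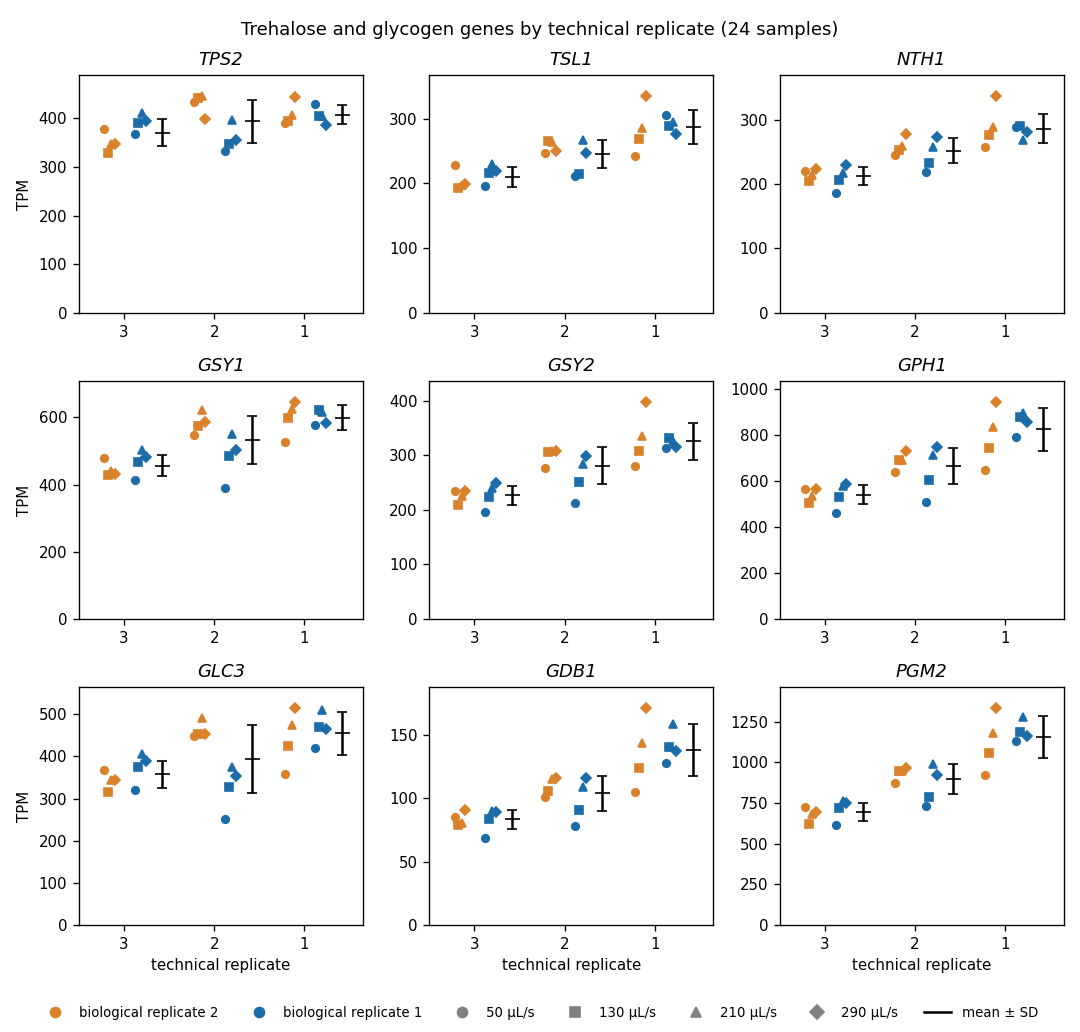
TPM of the 9 genes in each of the 24 samples (y axis, from 0) by technical replicate (x axis, 3, 2 and 1), with colours for the biological replicate, symbols for the speed, and the mean ± SD of 8 samples in black. In 7 of the 9 genes all 8 points of technical replicate 3 lie below all 8 of technical replicate 1, and TPS2 and GLC3 overlap.

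PGM2 had the lowest p of the 9 in this comparison. Its level was 617, 707 and 763 TPM (lowest, median, highest of 8) in technical replicate 3, 731, 935 and 993 TPM in technical replicate 2, and 921, 1171 and 1332 TPM in technical replicate 1. The 8 samples of technical replicate 3 were all below those of technical replicate 1. In TPM they overlapped with those of technical replicate 2 at their upper end, while on the log2 CPM scale these 2 groups did not overlap. Its log2 fold change was -0.77 (SE 0.05, adjusted p = 1.09e-10), or 0.588 times the level of technical replicate 1. The related gene PGM1, the minor phosphoglucomutase, moved the other way, with a log2 fold change of 0.22 (SE 0.03). The ratio of PGM2 to PGM1 was 6.89 ± 0.60 in technical replicate 3, 10.1 ± 1.1 in technical replicate 2 and 13.8 ± 1.8 in technical replicate 1 (SD, n = 8 each).

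The enzymes that break down glycogen fell nearly as far. GDB1 had 68.2, 84.5 and 90.6 TPM (lowest, median, highest of 8) in technical replicate 3, 77.8, 107 and 116 TPM in technical replicate 2, and 105, 138 and 171 TPM in technical replicate 1. The first and last of these groups did not overlap, and the log2 fold change of technical replicate 3 against 1 was -0.76 (SE 0.06, adjusted p = 5.49e-10). GPH1 had 460, 548 and 585 TPM in technical replicate 3, 508, 690 and 745 TPM in technical replicate 2, and 648, 844 and 940 TPM in technical replicate 1. It was also lower in every sample of technical replicate 3 than in any of technical replicate 1, with a log2 fold change of -0.64 (SE 0.05, adjusted p = 1.08e-09).

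Of the enzymes that make glycogen, GSY2 changed most. It had 197, 229 and 249 TPM (lowest, median, highest of 8) in technical replicate 3, 213, 291 and 308 TPM in technical replicate 2, and 280, 321 and 397 TPM in technical replicate 1. Its log2 fold change of technical replicate 3 against 1 was -0.56 (SE 0.05, adjusted p = 3.56e-09). GSY1 averaged 456 ± 31 TPM in technical replicate 3 and 599 ± 37 TPM in technical replicate 1 (SD, n = 8 each), a log2 fold change of -0.43 (SE 0.05). The ratio of GSY1 to GSY2 was accordingly 2.02 ± 0.09 in technical replicate 3 and 1.85 ± 0.09 in technical replicate 1 (SD, n = 8 each; the difference was not tested). GLC3 averaged 357 ± 32 TPM in technical replicate 3 and 455 ± 51 TPM in technical replicate 1, a log2 fold change of -0.38 (SE 0.08, adjusted p = 0.000341), and its groups overlapped.

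Among the trehalose genes, NTH1 and TSL1 fell by similar amounts. NTH1, whose product breaks trehalose down, had 187, 215 and 230 TPM (lowest, median, highest of 8) in technical replicate 3, 218, 255 and 278 TPM in technical replicate 2, and 258, 284 and 336 TPM in technical replicate 1. Technical replicate 3 lay below technical replicate 1 without overlap, and the log2 fold change between them was -0.47 (SE 0.04, adjusted p = 1.36e-09). TSL1 had 193, 208 and 231 TPM in technical replicate 3, 212, 248 and 267 TPM in technical replicate 2, and 243, 287 and 334 TPM in technical replicate 1, a log2 fold change of -0.49 (SE 0.06, adjusted p = 1.22e-07). The groups of technical replicates 3 and 1 did not overlap.

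TPS2 changed least of the 9. It averaged 371 ± 28 TPM in technical replicate 3 and 408 ± 20 TPM in technical replicate 1 (SD, n = 8 each), and the groups overlapped. Its log2 fold change was -0.18 (SE 0.05, adjusted p = 0.0047), and the call was lost without TMM (adjusted p = 0.0449), in the test of log2(TPM + 1) (adjusted p = 0.052), within biological replicate 1 (adjusted p = 0.0975), without B1T1 at 50 (adjusted p = 0.0143) and without B2T1 at 290 (adjusted p = 0.0145). The ratio of NTH1 to TPS2 was 0.576 ± 0.050 in technical replicate 3 and 0.700 ± 0.034 in technical replicate 1 (SD, n = 8 each).

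All 8 samples of technical replicate 3 were below all 8 of technical replicate 1 in 7 of the 9 genes, against 12.6% of all genes on the log2 CPM scale. Each sample of technical replicate 3 could also be set against that of technical replicate 1 with the same speed and biological replicate. On the log2 CPM scale, the same 7 genes were lower in all 8 of these pairs, against 19.9% of all genes, and TPS2 and GLC3 were lower in 7 of 8. The 9 genes were lower in every fit of this comparison. Fits within 1 speed, with 2 samples a group, called 0 of the 9 at 50 and 290 µL/s. Over all genes they called 0 at 50 µL/s and 15 at 290 µL/s. At 130 µL/s, with 558 of all genes called, TPS2, TSL1 and GLC3 were not called. At 210 µL/s, with 129 of all genes called, those not called were TPS2, GSY1 and GLC3. Relative to library totals without TMM, 1765 of 2649 called genes were higher in technical replicate 3, against 1346 of 2536 with TMM, and all 9 reserve carbohydrate genes were lower under both. For technical replicate 3 against 2 these counts were 1299 of 1991 and 1036 of 1982.

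Part of the change lay between each neighbouring pair of technical replicates. In technical replicate 2 against 1 all 9 genes had a negative log2 fold change, and 5 of them were called, against 2.49% of all genes called lower. The 5 called were GDB1 at a log2 fold change of -0.41 (SE 0.06), PGM2 at -0.36 (SE 0.05), GPH1 at -0.30 (SE 0.05), GSY2 at -0.21 (SE 0.05) and NTH1 at -0.18 (SE 0.04). The count of calls was 3 without B1T1 at 130, B1T1 at 50, B2T1 at 290 or B1T2 at 130. It was also 3 in a paired fit with each speed and biological replicate as a block. Over all genes, in either direction, the comparison called 221 with every sample kept. In the fits just named, in that order, it called 115, 129, 123, 140 and 141. All 9 genes also had a negative log2 fold change in technical replicate 3 against 2. This comparison called 7 of them lower, against 18.4% of all genes, with values between -0.40 for PGM2 and -0.26 for GSY1. TPS2 and GLC3 were not called, at -0.13 (SE 0.05, adjusted p = 0.04) and -0.17 (SE 0.08, adjusted p = 0.0891). The joint test of all 3 technical replicates called 8 of the 9 genes, against 48.2% of all genes, and TPS2 missed the threshold (adjusted p = 0.0129).

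For GLC3 the fall lay between different technical replicates in each biological replicate. The interaction of technical with biological replicate called GLC3 (adjusted p = 0.000998), against 6.34% of all genes called, and TPS2 was just outside the threshold (adjusted p = 0.0101), followed by GSY1 (adjusted p = 0.0776). In biological replicate 2, GLC3 at 50, 130, 210 and 290 µL/s had 368, 315, 343 and 344 TPM in technical replicate 3, 448, 453, 491 and 454 TPM in technical replicate 2, and 358, 425, 474 and 514 TPM in technical replicate 1. In biological replicate 1 it had 319, 374, 405 and 389 TPM in technical replicate 3, 253, 328, 375 and 354 TPM in technical replicate 2, and 421, 471, 509 and 465 TPM in technical replicate 1. Technical replicate 2 thus held all 4 of the lowest values at a given speed in biological replicate 1, and none of them in biological replicate 2.

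Fits within each biological replicate gave the sizes of these steps. For technical replicate 3 against 2, GLC3 had a log2 fold change of -0.43 (SE 0.07, adjusted p = 0.000292) in biological replicate 2 and of 0.10 (SE 0.05, adjusted p = 0.143) in biological replicate 1. For technical replicate 2 against 1, it had 0.04 (SE 0.07, adjusted p = 0.763) in biological replicate 2 and -0.48 (SE 0.05, adjusted p = 0.000319) in biological replicate 1. For technical replicate 3 against 1 the values were close, at -0.39 in both. TPS2, though not called in the interaction, had -0.30 (SE 0.05, adjusted p = 0.000229) in biological replicate 2 and 0.03 (SE 0.05, adjusted p = 0.655) in biological replicate 1 for technical replicate 3 against 2.

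The interaction called 2 or 3 of the 9 genes in place of 1 in several other fits. It called 3 without B2T3 at 50, and 2 without B1T1 at 290, B1T1 at 50, B2T1 at 290, B1T2 at 210, B2T2 at 290 or B1T3 at 50. Over all genes it called 326 with every sample kept, and 311 without B2T3 at 50. Without the other samples, in the order named, it called 327, 359, 340, 298, 284 and 378 of all genes. The interactions of speed with technical replicate and of speed with biological replicate called 0 of the 9 genes and 0% of all genes in edgeR, and 0 of the 9 with DESeq2 and with limma-voom. No unadjusted p of the 9 was under 0.05 in either.

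**Figure D2:**
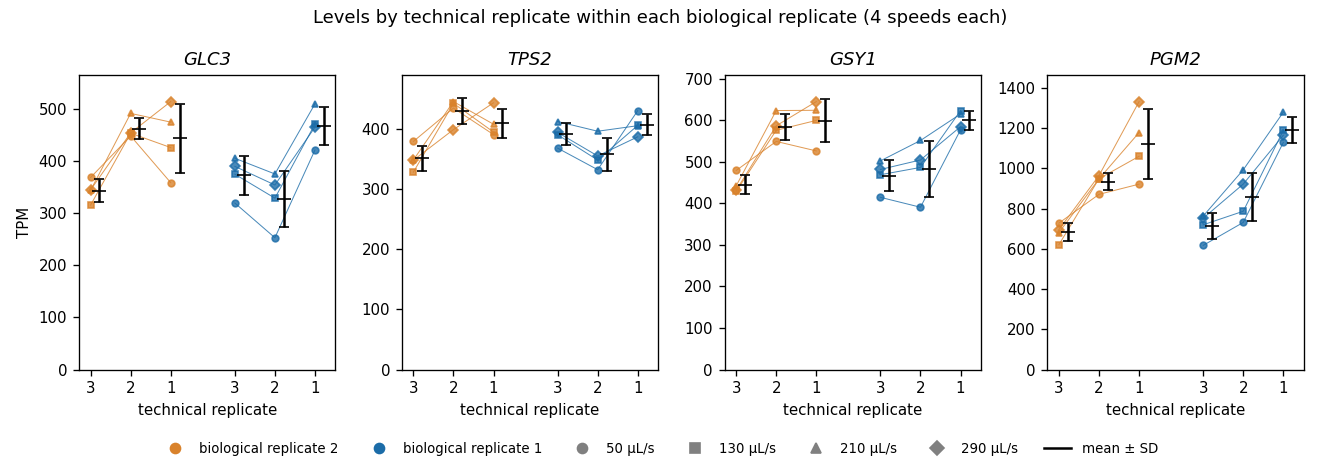
TPM of GLC3, TPS2, GSY1 and PGM2 (y axis, from 0) by technical replicate (x axis, 3, 2 and 1) in biological replicate 2 (left of each panel) and 1 (right). Thin lines join the 3 samples of a speed and black marks are the mean ± SD of 4 samples; GLC3 in technical replicate 2 averages 461 TPM in biological replicate 2 and 327 TPM in biological replicate 1.

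The comparison of biological replicate 2 with 1 over all technical replicates called 0 of the 9 genes, against 0% of all genes, with log2 fold changes between -0.02 and 0.10. edgeR gave no unadjusted p under 0.05 among the 9, and DESeq2 and limma-voom called 0. With the technical replicate term edgeR again called 0 of the 9, against 0.37% of all genes. Within technical replicate 2 alone, 3 of the 9 were called higher in biological replicate 2 than in biological replicate 1. Over all genes that passed the average-count filter in these samples, that fit called 264 higher. The 3 were GLC3 at a log2 fold change of 0.45 (SE 0.05, adjusted p = 6.42e-05), GSY1 at 0.22 (SE 0.04, adjusted p = 0.00279) and TPS2 at 0.21 (SE 0.04, adjusted p = 0.00353).

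The speed of pipetting was compared first with the model of the study's methods, which has terms for speed and biological replicate. It called 0 of the 9 genes at 290 against 50 µL/s, where it called 0.0389% of all genes, and 0 of the 9 at 210 and at 130 µL/s against 50, where it called 0% of all genes. None of the 9 had an unadjusted p under 0.05 in any of these, and DESeq2 and limma-voom called 0 as well. The lowest p values at 290 against 50 µL/s were those of GDB1 (log2 fold change 0.34, SE 0.20, adjusted p = 0.546), GPH1 (0.28, SE 0.17) and GSY2 (0.24, SE 0.15). The median log2 fold change of the 9 genes was 0.10 at 130, 0.18 at 210 and 0.21 at 290 against 50 µL/s, while that of all genes was -0.01 in each. The 9 genes together averaged 3495 ± 591 TPM at 50 µL/s, 3714 ± 669 TPM at 130, 3985 ± 649 TPM at 210 and 3999 ± 723 TPM at 290 µL/s (SD, n = 6 each).

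Samples with the same replicate numbers deviated together, so technical replicate was also entered as a block, which takes its differences out of the spread within a speed. Technical and biological replicate were separate terms without their interaction, so differences in that interaction stayed in the spread. A speed fit with each set of matched samples as a block was not run. With the technical replicate block, 8 of the 9 genes had a positive log2 fold change at 290 against 50 µL/s. Of these, 4 were called, against 1.77% of all genes called higher. GDB1 had a log2 fold change of 0.33 (SE 0.07, adjusted p = 0.00387), GPH1 of 0.27 (SE 0.06, adjusted p = 0.00543), GSY2 of 0.23 (SE 0.06, adjusted p = 0.00985) and NTH1 of 0.18 (SE 0.04, adjusted p = 0.00987). GSY2 and NTH1 were just inside the threshold. PGM2 was outside it at 0.20 (SE 0.06, adjusted p = 0.035), as were GLC3 at 0.20 (SE 0.09), GSY1 at 0.12 (SE 0.06), TSL1 at 0.07 (SE 0.06) and TPS2 at -0.02 (SE 0.06). At 210 against 50 µL/s the block fit called 0 of the 9 and 0% of all genes, with 6 of the 9 at an unadjusted p under 0.05, and at 130 against 50 µL/s it called 0, with none under 0.05. The joint test of speed with the block called 0 of the 9 (lowest adjusted p = 0.023, for GDB1), against 0.681% of all genes.

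In matched samples the differences of GDB1 were of unequal size. In biological replicate 2 it had 171 TPM at 290 and 105 TPM at 50 µL/s in technical replicate 1, 116 and 101 TPM in technical replicate 2, and 90.6 and 85.6 TPM in technical replicate 3. In biological replicate 1 it had 137 TPM at 290 and 128 TPM at 50 µL/s in technical replicate 1, 116 and 77.8 TPM in technical replicate 2, and 89.5 and 68.2 TPM in technical replicate 3. GDB1 was thus higher at 290 µL/s in 6 of 6 pairs, though the 6 samples of each speed overlapped.

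GPH1 was also higher in 6 of 6 pairs (pairs are counted here on the log2 CPM scale), with log2 differences between 0.007 and 0.533. Its levels were 566, 737 and 940 TPM (lowest, median, highest of 6) at 290 and 460, 599 and 791 TPM at 50 µL/s. Of all genes, 4.32% were higher at 290 µL/s in every pair. GSY2 had 234, 303.2 and 397 TPM at 290 and 197, 256 and 313 TPM at 50 µL/s, and was higher in 4 of 6 pairs. NTH1 had 223, 276 and 336 TPM at 290 and 187, 232 and 289 TPM at 50 µL/s, and was higher in 5 of 6. TSL1 had 199, 248 and 334 TPM at 290 and 196, 236 and 305 TPM at 50 µL/s, and PGM2 had 696, 943 and 1332 TPM at 290 and 617, 801 and 1129 TPM at 50 µL/s. Both were higher in 4 of 6 pairs and overlapped widely.

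**Figure D3:**
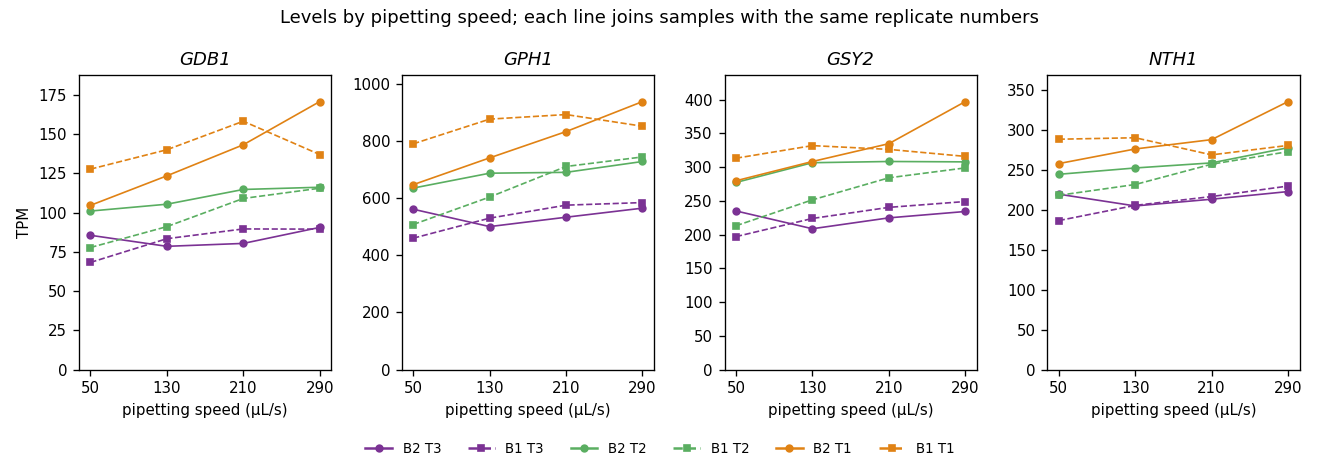
TPM of GDB1, GPH1, GSY2 and NTH1 (y axis, from 0) by pipetting speed (x axis, in µL/s), where each of the 6 lines joins the samples of 1 biological (B) and technical (T) replicate. GDB1 and GPH1 are higher at 290 than at 50 µL/s on all 6 lines, though GPH1 only slightly in B2T3. The lines of technical replicate 1 lie above those of technical replicate 3 at every speed.

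The count of calls moved with single samples, while the fold changes of these 4 genes stayed above 0. Without B2T1 at 290, B2T1 at 50, B1T2 at 290, B1T2 at 50 or B1T3 at 50 the block fit called 0 of the 9 genes, and without B2T2 at 290 or B1T3 at 290 it called 1. With every sample kept, the block fit called 202 of all genes. Without the samples just named, in that order, it called 84, 94, 70, 130, 94, 101 and 71 of all genes. It called 2 of the 9 without any of the 6 samples at 210 µL/s, B1T1 at 130, B2T1 at 130, B1T2 at 130, B1T3 at 130, B2T2 at 50 or B2T3 at 290. Of these fits, that without B2T3 at 290 called 87 of all genes, and the others called between 164 and 188. GDB1 was called in 19 and GPH1 in 17 of the 24 fits that left out a sample, GSY2 in 5 and NTH1 in 3. The log2 fold changes in these fits lay between 0.28 and 0.38 for GDB1 and between 0.235 and 0.332 for GPH1. The highest count was 5, without B2T3 at 50. Mean fragment length averaged 188 ± 1.8 bases at 290 and 184 ± 3.1 bases at 50 µL/s (SD, n = 6 each). With it as a covariate 0 of the 9 were called, and calls over all genes went from 202 to 7. GDB1 was then at a log2 fold change of 0.35 (SE 0.09, adjusted p = 0.0343) and GPH1 at 0.29 (SE 0.08, adjusted p = 0.0453). The count was also 0 with only the samples of these speeds and within either biological replicate, where 0 of all genes were called with these speeds alone, 268 within biological replicate 2 and 0 within biological replicate 1. GDB1 was at 0.33, 0.35 and 0.32 in these fits, and GPH1 at 0.28, 0.26 and 0.30. Over all alternatives other than left-out samples, adjusted p values of GDB1 lay between 9.09e-05, in DESeq2, and 0.185, within biological replicate 1.

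The 9 genes varied together over the 24 samples. Pearson's r between the log2 CPM of 2 genes lay between 0.65, for NTH1 and TPS2, and 0.99, for GDB1 and GPH1, with a median of 0.93 over 36 pairs. The samples share the replicate structure described above, so these values describe the set and carry no test. Technical replicate accounted for between 37.8% (TPS2) and 85.8% (PGM2) of the variance of a gene, speed for between 2.93% (TSL1) and 15.7% (GLC3), and biological replicate for at most 3.82% (GLC3). The interaction of technical and biological replicate took 31.6% in TPS2 and 26% in GLC3 and at most 7.12% in the other 7.

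**Figure D4:**
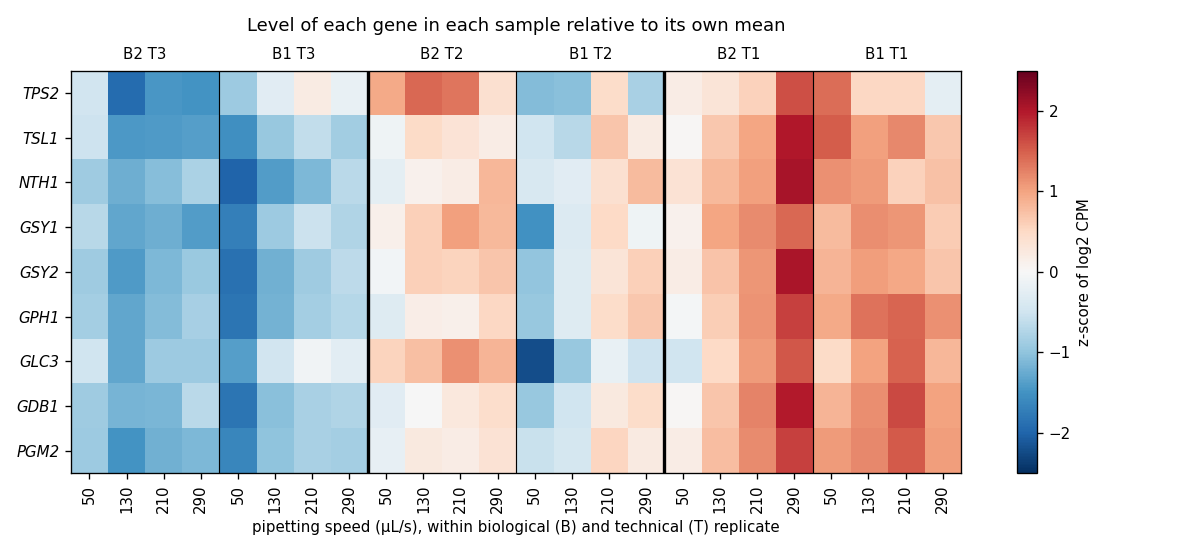
Level of each of the 9 genes (rows) in each of the 24 samples (columns), as the z-score of log2 CPM over the samples of that gene, with columns grouped by technical replicate 3, 2 and 1, then by biological replicate, then by speed. Red is above and blue below the mean of the gene; B2T1 at 290 is red in all 9 rows, and GLC3 and TPS2 are red in B2T2 where they are mostly blue in B1T2.

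The other genes whose log2 CPM was most like the mean of the 9 over the 24 samples were YMR196W (r = 0.99), RTN2 (r = 0.98), DCS2 (r = 0.98), YGR130C (r = 0.98) and BCY1 (r = 0.97). The 9 genes themselves had r between 0.81 for TPS2 and 0.99 for GSY2 with a mean that included them.

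Other genes of the same metabolism were followed in a list of 23, of which 22 had a row. In technical replicate 3 against 1, 1 was called higher and 11 were called lower, against 26.2% of all genes called higher and 23.1% called lower. With or without a call, 4 of the 22 had a positive and 18 a negative log2 fold change, and the median was -0.16. PGM1 was the one called higher. PIG2, a regulatory subunit that targets the phosphatase Glc7 to glycogen synthase, was at -0.81 (SE 0.06), GLK1, a glucokinase, at -0.70 (SE 0.05), and HXK1, a hexokinase, at -0.51 (SE 0.06). UGP1, which makes UDP-glucose, was at -0.51 (SE 0.04). The duplicates of 2 members were also lower, TPS3 at -0.27 (SE 0.04) and NTH2 at -0.17 (SE 0.05). At 290 against 50 µL/s with the block, 0 of the 22 were called. An unadjusted p under 0.05 was found for 7 of the 22, against 29.3% of all genes.

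Regulators of the nutrient and stress signals that act on these genes were followed in a list of 23. In technical replicate 3 against 1, 3 were called higher and 11 lower, against 26.2% of all genes called higher and 23.1% called lower. With or without a call, 6 had a positive and 17 a negative log2 fold change, with a median of -0.11. The Ras gene RAS1 was at 0.49 (SE 0.06), TPK3, a catalytic subunit of protein kinase A, at 0.35 (SE 0.04), and GIS1, a transcription factor, at 0.27 (SE 0.06). DCS2, a relative of the scavenger decapping enzyme gene DCS1, was at -0.77 (SE 0.06), PDE1, the low-affinity cyclic AMP phosphodiesterase, at -0.55 (SE 0.04), and DCS1 at -0.52 (SE 0.04). MSN2 and MSN4, which encode activators of stress genes, were not called. At 290 against 50 µL/s the model without the block called 0 of the 23, and with the block CYR1, the adenylate cyclase, was at 0.17 (SE 0.04), PSK1, a PAS kinase that acts on sugar storage, at 0.18 (SE 0.04) and REG1, a subunit of Glc7, at 0.14 (SE 0.03), against 1.77% of all genes called higher. PSK2, the other PAS kinase, was lower in biological replicate 2 than in 1 with the block, at -0.14 (SE 0.02).

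Of 10 stress response genes with a row, 8 were called lower in technical replicate 3 than in technical replicate 1, against 23.1% of all genes. The median log2 fold change was -0.92. HSP26, a small heat shock protein, was at -1.93 (SE 0.08), SSA4, a heat-inducible Hsp70, at -1.07 (SE 0.05) and HSP12, a membrane-associated stress protein, at -0.96 (SE 0.04). CTT1, the cytosolic catalase, and SOD2, the mitochondrial superoxide dismutase, were not called, at -0.12 (SE 0.15) and 0.05 (SE 0.06). At 290 against 50 µL/s the model without the block called 0 of the 10. With the block, HSP26 at 0.60 (SE 0.09), HSP12 at 0.34 (SE 0.05) and SSA4 at 0.25 (SE 0.05) were called higher, against 1.77% of all genes. The calls of this block fit over all genes went from 202 to 7 with mean fragment length as a covariate. Its alternatives were examined gene by gene for the 9 reserve carbohydrate genes only, so whether these 3 calls or those of the regulators held was not tested. The interaction of technical with biological replicate called 2 of the 10 stress response genes (CTT1 and SOD2), 2 of the 23 regulators (GIS1 and YAK1) and 0 of the 22 pathway genes, against 6.34% of all genes. Of the 22, 7 had an unadjusted p under 0.05, against 28.5% of all genes.

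**Figure D5:**
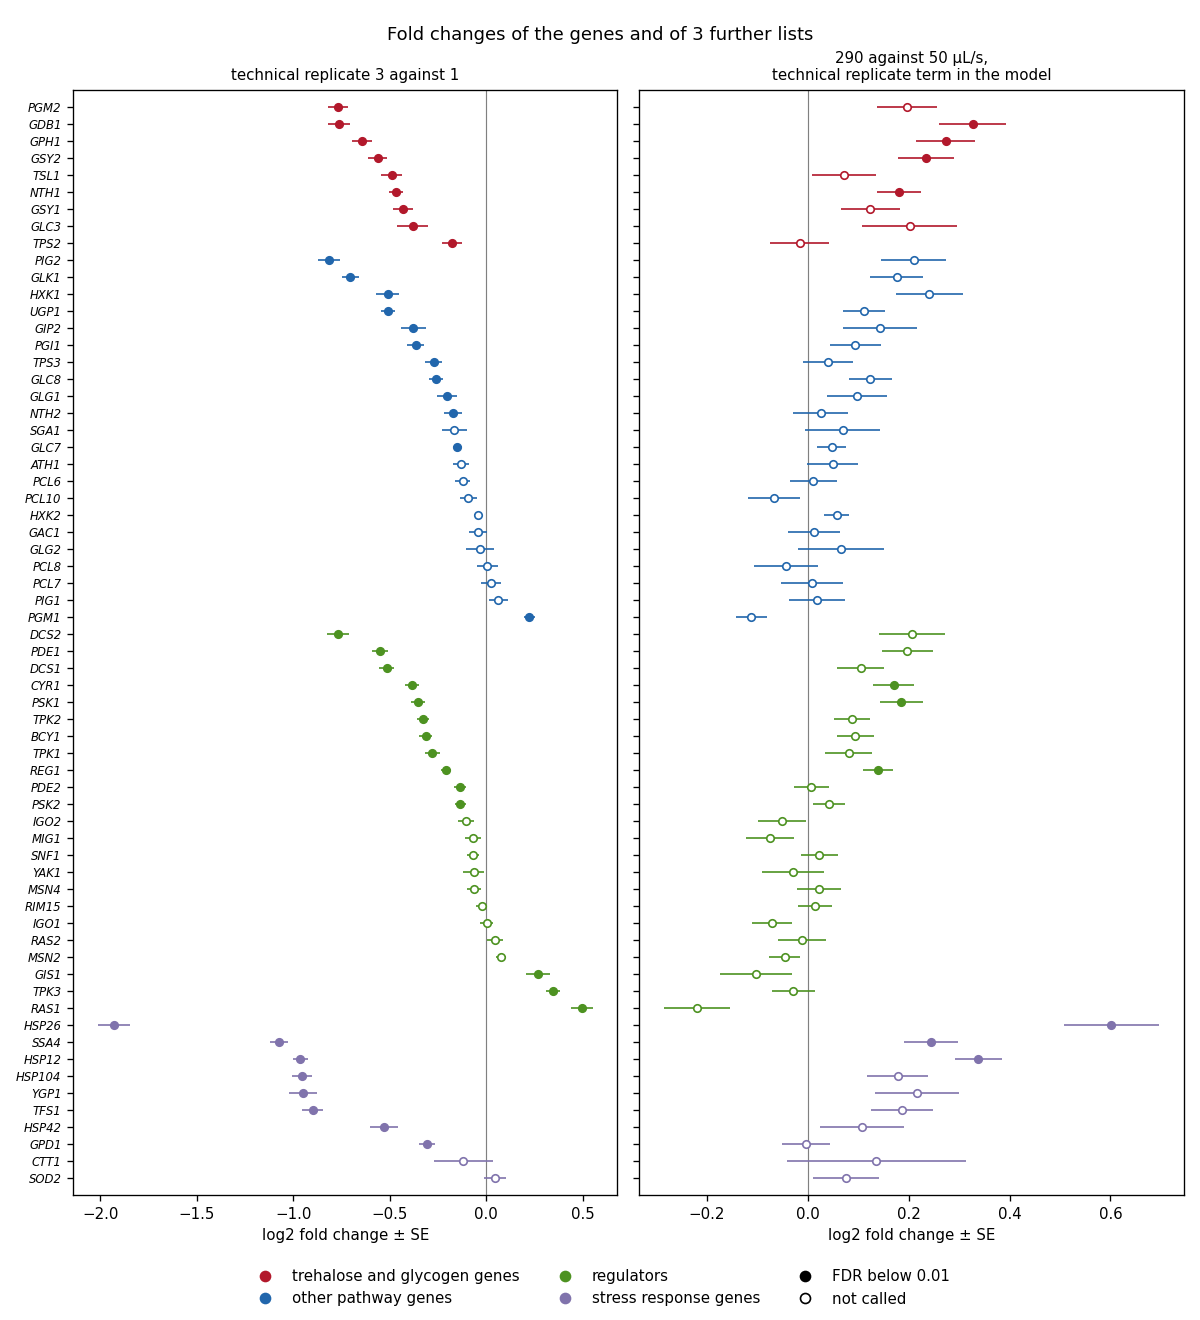
log2 fold change ± SE (x axis) of the 9 genes and of the genes of 3 further lists (rows) for technical replicate 3 against 1 (left) and for 290 against 50 µL/s with the technical replicate term (right, on its own scale), where filled points have an FDR below 0.01. All 9 reserve carbohydrate genes are filled and negative on the left, and GDB1, GPH1, GSY2 and NTH1 are filled and positive on the right.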

How the data were processed

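RNA-seq data of 24 samples were used. Reads were trimmed (fastp 0.23.2), aligned to the W303 genome (STAR 2.7.10a) and assigned to genes by strand (RSEM) by the authors. The deposited expected counts are not normalized, and the deposited TPM values are scaled to gene length and to each library. A table of the whole series with 24 columns, whose names match no sample label, was not used. Speed and replicate numbers were taken from the labels. The labels and the methods give different shaking speeds and volumes for the cultures.

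Expected counts were rounded, genes were kept where the average count exceeded 1, and these 5142 genes were tested by edgeR 4.0.16 in R 4.3.3 (glmQLFit and glmQLFTest after TMM), with Benjamini-Hochberg adjustment over all of them and an FDR threshold of 0.01. Terms were speed and biological replicate, as in the study's methods, with technical replicate and interactions added as named. Deviations of samples with the same replicate numbers correlated in all 36 pairings of speeds (r between 0.148 and 0.779), so the numbers were taken to pair the samples. The fit was tested on simulated data. Alternatives used DESeq2 1.42.0, limma 3.58.1, other scaling, filters and covariates, a pseudocount of 1 on TPM, subsets of samples, and each sample left out in turn. The alternatives of the 290 against 50 µL/s fit with the technical replicate term and edgeR's legacy fit were chosen after seeing the data.

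The 10 genes and the further lists were chosen with earlier results of these data known. Described by the spread of their samples were the 3 genes with the lowest p at 290 against 50 µL/s, the 4 with the lowest p in technical replicate 3 against 1, and GSY2 and TSL1 (the rule also named TPS1, which was not analysed here); from the lists, every gene called at 290 against 50 µL/s or between biological replicates and the 3 largest rises and falls called in technical replicate 3 against 1. The 5 genes most like the mean of the 9 were named as a description. The single values of GLC3, and TPS3, NTH2, UGP1, CTT1, SOD2, GIS1, YAK1, MSN2 and MSN4, were added after their values were seen. Names came from the R64 annotation (5151 of 5193 genes matched), and no coordinates or sequences of that assembly were used.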

Additional observations from a re-analysis of the deposited data

Results flagged for a closer look

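In technical replicate 1, B2T1 at 290 µL/s stood apart from the other 7 samples in 2 genes. NTH1 was at 335.83 TPM in this sample, against 258.11 to 290.51 TPM in the others, a gap of 0.583 of the whole range. GSY2 was at 397.03 TPM, against 279.7 to 334.65 TPM, a gap of 0.532 of the range. These were 2 of 63 groups of samples examined over the 9 genes, and chance alone gives about 1 in 20. The sample bears on the calls at 290 against 50 µL/s with the technical replicate term, which number 4 with it and 0 without it. Over all genes that fit called 202 with the sample and 84 without it.

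GLC3 differed between biological replicates in how its level moved over technical replicates, with an adjusted p of 0.000998 for the interaction in edgeR. In technical replicate 3 against 2 it was lower in 4 of 4 speeds in biological replicate 2 and higher in 4 of 4 in biological replicate 1.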

How the results depend on the processing

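Technical replicate 3 was lower than technical replicate 1 in all 9 genes under every alternative run, and leaving out 1 sample gave 8 to 9 calls. Fits within 1 speed had 2 samples a group. In technical replicate 3 against 1 they called 0 of the 9 at 50 and 290 µL/s. Over all genes they called 0, 558, 129 and 15 in that comparison at 50, 130, 210 and 290 µL/s. In 3 against 2 and in 2 against 1 they called 0 of the 9 at each of the 4 speeds. Over all genes, 3 against 2 called 177 at 130 µL/s and 0 at the other speeds. In 2 against 1 the count over all genes was 0 at each speed. The joint test called 0, 2, 4 and 0 of the 9 at 50, 130, 210 and 290 µL/s. Over all genes it called 0, 284, 29 and 0. For technical replicate 2 against 1 the count was 5, and became 2 within biological replicate 2, 3 with the replicate block of speed and biological replicate, and 3 to 6 with 1 sample left out. Over all genes this comparison called 221 in the main fit, 390 within biological replicate 2 and 141 with that replicate block. The interaction of technical and biological replicate called 2 in place of 1 without TMM, with DESeq2, with limma-voom, with filterByExpr and at an FDR of 0.05, and 1 to 3 with 1 sample left out. Over all genes it called 326 in the main fit. In the alternatives just named, in that order, it called 357, 419, 319, 328 and 691.

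At 290 against 50 µL/s the count was 0, and 4 with technical replicate number as a replicate block. With that block it was 0 with mean fragment length as a covariate, with only the samples of these speeds and within each biological replicate, and 0 to 5 with 1 sample left out. Over all genes the block fit called 202, and 7 with that covariate. It called 0 of all genes with these speeds alone, 268 within biological replicate 2 and 0 within biological replicate 1. The block changed no other call of the 9 genes in the speed or biological replicate comparisons. For biological replicate 2 against 1 the count of 0 became 3 within technical replicate 2, where 401 of all genes were called.

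The signs that turned belonged to values that were not called. At 290 against 50 µL/s, mean fragment length as a covariate gave 0.012 for TPS2, and 0.037 with the block, and TSL1 was at -0.031 within technical replicate 3. Leaving out 1 sample gave -0.061 to 0.027 for TPS2 (-0.049 to 0.012 with the block) and -0.025 to 0.174 for TSL1. For biological replicate 2 against 1, fragment length gave 0.008 for TSL1 and 0.002 for PGM2, and log2(TPM + 1) gave 0.003 for TSL1. Within technical replicate 1, GLC3 was at -0.076 and GDB1 at -0.067. Within technical replicate 2, TSL1 was at 0.070, GPH1 at 0.048 and PGM2 at 0.070, and within technical replicate 3, TPS2 was at -0.130, GSY1 at -0.039, GPH1 at 0.039 and GLC3 at -0.087. Leaving out 1 sample gave -0.055 to 0.045 for TSL1, -0.067 to 0.035 for GPH1, -0.048 to 0.085 for GDB1 and -0.084 to 0.040 for PGM2. The cause was not tested.

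Each gene had at least 4706 counts in every sample. There were 2 cultures and 1 sample for each speed, culture and technical replicate.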
